A study of Mus musculus with 6 samples.

Results

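FGF8-pretreated brown preadipocytes were followed from early to late differentiation by comparing the FGF8 library of day 9 with the FGF8 library of day 3. All genes whose mean over these 2 libraries was 20 normalized counts or more were described, which kept 12869 of the 26264 genes listed. The cut fell between Gm16740, with 27 and 26 counts and a mean of 20.0 normalized counts, and Cldn23, with 6 and 44 counts and a mean of 19.99. The series held 6 bulk RNA-seq libraries, 1 for each of 2 pretreatments and 3 harvests, so no difference below could be set against a spread between replicates and no p-value is given. All cells were wild-type Bl6N cells of the stromal vascular fraction of interscapular brown fat (iBAT), immortalized with the SV40 large T antigen, which every group carries. The FGF8 group had received 5.5 nM FGF8 for 48 h before differentiation. The comparison group was untreated by its labels and vehicle-treated by the series design. Differentiation consisted of 2 days of induction followed by differentiation medium. The last harvest came after 7 days in that medium, which is day 9 counted from the start of induction and D7 in the labels. Both media held insulin, T3 and rosiglitazone, and only the induction medium held IBMX, dexamethasone and indomethacin. Day 3 came 1 day after these were removed, so their removal and the time of differentiation cannot be told apart in this comparison. The growth text of the labels describes primary white preadipocytes, whereas titles, tissue and cell line fields name immortalized brown cells, and the latter are followed here.

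Brown adipocytes burn fatty acids and glucose for heat. Uncoupling protein 1 in the inner mitochondrial membrane lets protons bypass ATP synthase, and this needs a dense respiratory chain, stored triglyceride and a supply of fatty acids. During adipogenesis, transcription factors such as PPARγ and C/EBPα switch on lipid genes early, while cells leave the cell cycle and genes of the progenitor are turned down. FGF8 is a secreted growth factor that signals through FGF receptors and the ERK kinases.

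The 2 FGF8 libraries held 38031701 counts on day 3 and 34500934 counts on day 9, and the untreated libraries of the same days 19468173 and 38551551. The cells carried an adipocyte profile on both days. Of 5 adipocyte markers 4 passed the filter, all within 2-fold between the days (median log2 fold change -0.10), and Lep did not pass. On day 9 Fabp4 and Plin1 were slightly higher, and Adipoq and Cidec were lower. Fabp4, the fatty acid carrier of adipocytes, had 334151 normalized counts on day 3 and 353330 on day 9, and Plin1, the coat protein of lipid droplets, 18467 and 22036. Of the 6 brown adipocyte markers, 5 passed the filter, and Dio2, the deiodinase that activates thyroid hormone, stayed below it with 18 and 23 counts. Preadipocyte markers were still present, with Pdgfra at 5840 and 3651 normalized counts, and Dpp4 had 0 counts in both libraries. Markers of other cell types differed by type. All 4 smooth muscle markers passed the filter, with a summed level of 1398 and 1537 normalized counts, of which Acta2 had 783.4 and 838.1. Of 4 Schwann cell markers 2 passed, with a summed level of 403.6 and 534.9 over the list. The part of these cell types in the results was not tested. Of 9 macrophage markers 2 passed the filter (Cd68 and Cd14), their summed level over the list was 143.9 and 139.0 normalized counts, and Ptprc, Adgre1 and C1qa had 0 counts in both libraries. None of 6 endothelial and none of 4 T cell markers passed, and of 7 skeletal muscle markers only Actn3 did. In bulk RNA, fewer cells of a type and less RNA per cell cannot be told apart.

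Between day 3 and day 9, 1050 genes (8.16%) were at least 2-fold higher and 695 genes (5.40%) at least 2-fold lower on day 9, and 11124 genes (86.4%) stayed within 2-fold. Fold changes are differences of log2(normalized count + 1), which understates the change of scarce genes. The median over all 12869 genes was -0.01 on this log2 scale. This median and the shares above are the background for the gene lists below. The higher genes reached further than the lower ones, with 137 genes at a log2 fold change of 3 or more and 25 genes at -3 or less. The 95% exact binomial interval of the ratio of the 2 counts, which covers counting error only, lay above 0 for 4844 genes and below 0 for 5058 genes.

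**Figure D1:**
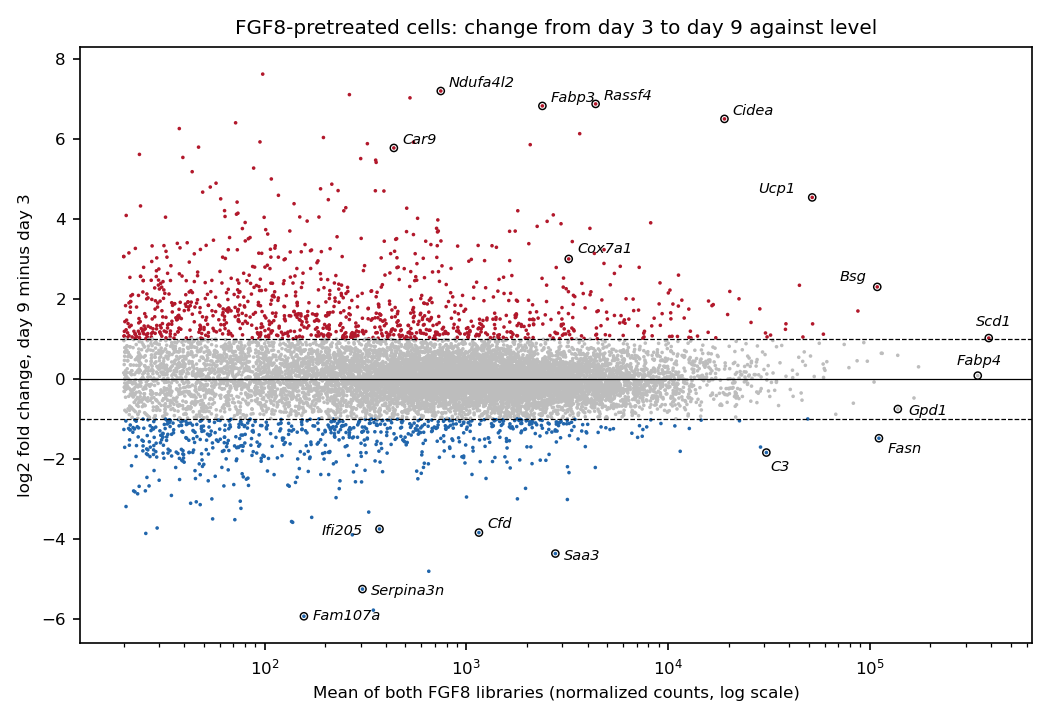
Log2 fold change between day 3 and day 9 (y axis, log2 units) against the mean of both FGF8 libraries (x axis, normalized counts, log scale) for the 12869 genes, each point a gene. Red points are the 1050 genes at least 2-fold higher on day 9, blue points the 695 genes at least 2-fold lower and grey points the others, dashed lines mark 2-fold, and circled genes are named in the text.

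Where the mean reached 100 normalized counts or more, the 10 largest increases were led by Ndufa4l2 (chr10:127350818-127353038, GRCm39), a mitochondrial protein known as a target of hypoxia signaling. It had 9.13 normalized counts on day 3 and 1487 on day 9 (log2 fold change 7.20; 95% interval 6.57 to 8.26). Aire, a transcriptional regulator best known from the thymus, went from 2.81 to 524.4 normalized counts, and the calcium-activated chloride channel Ano1 from 7.02 to 1045. Rassf4, a Ras association domain protein, went from 73.0 to 8690 normalized counts (6.88). Fabp3, the fatty acid carrier of heart, muscle and brown fat, went from 40.7 to 4731 (6.83), and the lipid droplet protein Cidea from 415.5 to 37734 (6.50). The remaining 4 were Depp1 (6.13), 4933433H22Rik (6.04), the chloride intracellular channel family member Clic5 (5.92) and the epithelial transcription factor Elf3 (5.88). All 10 were low on day 3, at most 415.5 normalized counts.

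The 10 largest decreases were led by Fam107a, an actin-associated stress-responsive gene, with 309.6 normalized counts on day 3 and 4.06 on day 9 (log2 fold change -5.94; 95% interval -7.88 to -5.02). The microtubule-associated Map7d2 went from 681.6 to 11.4 (-5.78). The acute-phase protease inhibitor Serpina3n (chr12:104372810-104380597) went from 597.3 to 14.6 (-5.26) and the tight junction protein Cldn1 from 1261 to 43.9 (-4.81). Serum amyloid A3 (Saa3, chr7:46361422-46365576) went from 5281 to 254.5 (-4.37). The other 5 were the angiotensin-converting enzyme Ace (-3.90), the complement protease adipsin (Cfd, -3.85), the p200 family member Ifi205 (-3.75), the ACTH receptor Mc2r (-3.59) and the sulfotransferase Sult1a1 (-3.57).

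The genes with the most normalized counts per kilobase of exon had 3 names in common between the days. At day 3 they were Fabp4 (67464 per kb), Gpd1 (54828), the stearoyl-CoA desaturase Scd1 (35724), the cytochrome c oxidase subunit Cox6a1 (24732) and the translation factor Eef1a1 (21768). At day 9 Scd1 (72443 per kb) and Fabp4 (71336) led, followed by basigin (Bsg, 65338), a partner of lactate transporters, Ucp1 (51307) and Cox6a1 (40934). Gpd1, the glycerol-3-phosphate dehydrogenase that supplies the triglyceride backbone, was at 32492 per kb on day 9. Bsg had 36849 normalized counts on day 3 and 181445 on day 9, a log2 fold change of 2.30, and Ucp1 and Bsg entered the 5 where Gpd1 and Eef1a1 left them. Exon length was the merged length of all annotated transcripts of a gene.

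Effectors of brown fat were higher on day 9. Of 26 genes that passed the filter among 30 listed, 15 were at least 2-fold higher and 0 lower, with a median log2 fold change of 1.66 against -0.01 over all genes. Ucp1, the uncoupling protein itself, had 4287 normalized counts on day 3 and 99587 on day 9 (log2 fold change 4.54; 95% interval 4.50 to 4.58). In untreated cells Ucp1 had 319.5 and 91306 normalized counts. The acyl-CoA thioesterase Acot11 went from 25.3 to 683.7 normalized counts (4.70), the uncoupling protein family member Ucp3 from 24.6 to 469.9 (4.20) and the proton channel Otop1 from 1758 to 6013 (1.77). Some well-known members differed little between the days. Elovl3, the fatty acid elongase of brown fat, had 4650 and 4788 normalized counts, the potassium channel Kcnk3 3889 and 4898, and the pantothenate kinase Pank1 2927 and 2601, the lowest change of the list (-0.17).

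Brown fat regulators were mostly within 2-fold, as were 86.4% of all genes. Of 26 members that passed, 1 was at least 2-fold higher and 3 at least 2-fold lower, with a median of 0.01. The higher member was Ppara, the nuclear receptor that controls fatty acid oxidation and the member with the most counts, at 7228 and 15075 normalized counts (1.06). The lower members were the interferon regulatory factor family member Irf4 (470.3 and 130.1, -1.85), the corepressor Nrip1 (2370 and 800.8, -1.56) and the LIM homeobox gene Lhx8 (815.7 and 335.7, -1.28). Prdm16, the coregulator that sets brown identity, had 1397 and 1641 normalized counts, Ebf2 5175 and 6805, and the coactivator Ppargc1a 2130 and 3755 (0.82).

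The transcription factors of adipogenesis were, in the median, slightly lower on day 9 (-0.31 over 29 members, 2 at least 2-fold higher and 6 at least 2-fold lower). Pparg, the master regulator of adipocyte differentiation, had 5339 normalized counts on day 3 and 6176 on day 9 (0.21). Cebpa, induced late in adipogenesis, went from 17949 to 7590 (-1.24), and Cebpd, which acts early and upstream of it, from 605.8 to 142.3 (-2.08). The glucocorticoid-inducible Klf15 was lowest relative to day 3, at 642.3 and 127.6 (-2.32), and Rxra, the heterodimer partner of PPARγ, went from 4318 to 1554 (-1.47). Srebf1, which drives lipogenic genes and had the most counts, was at 26319 and 18681 (-0.49). The zinc finger factor Zfp467 was the largest increase (246.4 and 849.5, 1.78).

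Genes of lipid storage differed little between the days. Of 33 members of lipid storage and lipolysis, 3 were at least 2-fold higher and 0 lower, with a median of 0.08. The 3 were the monoacylglycerol acyltransferase Mogat1 (103.9 and 333.3, 1.67), the cortisone reductase Hsd11b1 (1.56) and Pck1, which makes glycerol phosphate without glucose (1.32). The largest decrease was that of the acyl-CoA synthetase Acsl1, from 88197 to 47719 (-0.89). Genes of fatty acid synthesis went both ways. Of 23 members, 4 were at least 2-fold higher and 2 at least 2-fold lower, with a median of -0.03. Scd1 had 257431 and 522023 normalized counts (1.02) and the acetyl-CoA synthetase Acss2 4546 and 16631 (1.87). Fasn, the fatty acid synthase, went from 163954 to 58558 (-1.49), and Thrsp, a lipogenic cofactor, from 19640 to 9597 (-1.03). In untreated cells Fasn had 84007 and 90653 normalized counts.

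Genes of fatty acid oxidation were mostly higher on day 9. Of 28 members 27 had a value above 0, 5 of them at least 2-fold higher, and the median was 0.68. Hadha, a subunit of the mitochondrial trifunctional protein and the most counted member, went from 53158 to 96515 normalized counts (0.86), and its partner Hadhb from 22780 to 53749 (1.24). The thioesterase Acot2 had the largest increase, from 1294 to 5507 (2.09). Ehhadh, the peroxisomal bifunctional enzyme, was the member below 0 (3326 and 2992, -0.15). Of 19 genes of the TCA cycle and its entry, 15 were above 0 and none was higher by 2-fold, with a median of 0.40. Idh2, the mitochondrial isocitrate dehydrogenase, had the largest increase (0.95). Pyruvate carboxylase (Pcx), which refills the cycle and feeds fatty acid synthesis, went from 65884 to 32867 normalized counts, the single member at least 2-fold lower.

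Nuclear genes of the respiratory chain were higher in small, even steps. Mitochondrially encoded genes were not among the genes listed, so only nuclear-encoded subunits are described here and below. All 38 genes of complex I that passed were above 0, with a median of 0.48 and a range from 0.01 to 1.09, and 1 of them, Ndufa3, was at least 2-fold higher. All 13 genes of complexes II and III were above 0 (median 0.48), with Uqcrb highest at 1.07. The 15 genes of ATP synthase had a median of 0.31, and 14 were above 0. The exception was Atp5g1, 1 of the 3 genes for the c subunit of the rotor, at 3538 and 1619 normalized counts (-1.13). In this list Atp5b had the most counts, at 156715 and 193000.

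Genes of cytochrome c oxidase were higher on day 9. Its 18 nuclear genes were all above 0 (median 0.58), and 4 were at least 2-fold higher. Each of these 4 is a form restricted to few tissues, with a ubiquitous paralog in the list. Cox6a2 went from 72.3 to 831.6 normalized counts (3.51), whereas Cox6a1 went from 17609 to 29145 (0.73). Cox7a1 went from 716.0 to 5730 (3.00) and Cox7a2 from 6986 to 10627 (0.61). Cox8b went from 261.1 to 2562 (3.29) and Cox8a from 16481 to 26479 (0.68). Cox4i2 went from 5.62 to 68.3 (3.39) and Cox4i1 from 22017 to 29888 (0.44). Another pair was within 2-fold, with Cox6b2, a form best known from testis, at 181.1 and 277.2 (0.61) and Cox6b1 at 11280.1 and 15322 (0.44). The 4 pairs above were named because their tissue-restricted form had passed 2-fold. The other members, cytochrome c (Cycs, 23517 and 31473, the most counts) included, ran from 0.16 for Ndufa4 to 0.94 for Cox5a.

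**Figure D2:**
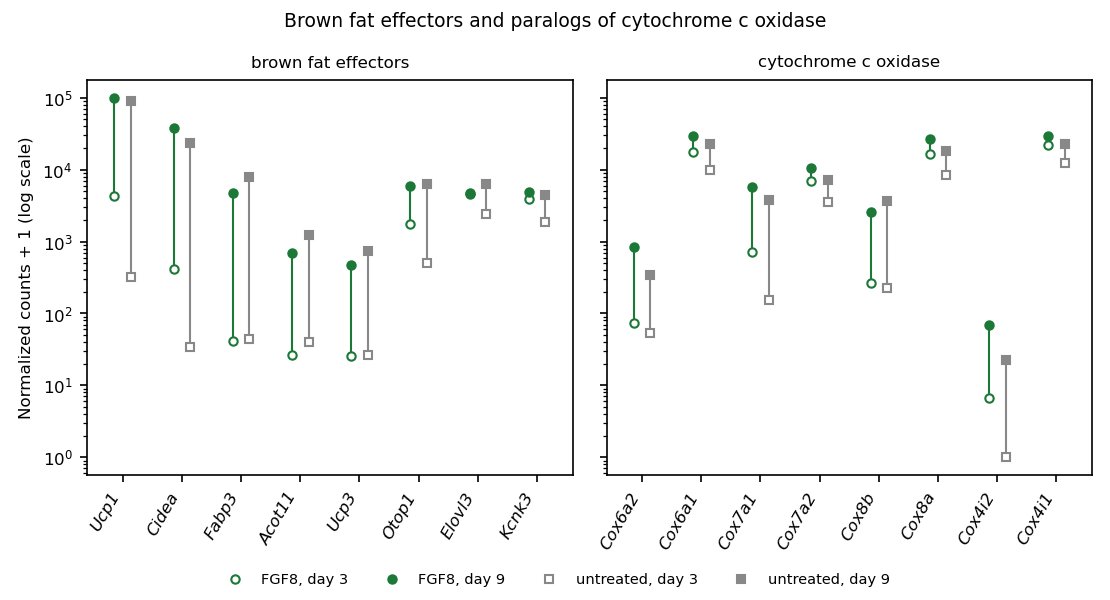
Normalized counts plus 1 (y axis, log scale) on day 3 (open) and day 9 (filled) in FGF8-pretreated (green circles) and untreated cells (grey squares), 1 library per point, for 8 brown fat effectors and 4 pairs of cytochrome c oxidase paralogs. The lines of Cox6a2, Cox7a1, Cox8b and Cox4i2 are long and those of Cox6a1, Cox7a2, Cox8a and Cox4i1 short, and Ucp1 starts higher in the FGF8 library of day 3 (4287) than in the untreated one (319.5).

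Other mitochondrial genes had medians near 0. The 78 genes of the mitochondrial ribosome had a median of 0.06 and 0 of them passed 2-fold, with a range from -0.68 for Mrps11 to 0.91 for Mrpl23. Of 38 genes of mitochondrial biogenesis and dynamics 3 were at least 2-fold higher, the cristae protein Chchd10 (7305 and 33244, 2.19), the coenzyme Q chaperone Coq10a (1.53) and the matrix protease Lonp1 (1.41). Tfam, which packages mitochondrial DNA, had 4385 and 4396 normalized counts. Hspa9, the matrix chaperone with the most counts, was at 73251 and 100166, and the DNA polymerase Polg was lowest relative to day 3 (-0.58). Cytosolic ribosome genes (79, median -0.19) and cholesterol synthesis and uptake (28, median 0.06) had 0 members past 2-fold in either direction.

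Genes of glycolysis and of the response to low oxygen were higher on day 9. Of 32 members 18 were at least 2-fold higher and 0 at least 2-fold lower, with a median of 1.07. Carbonic anhydrase 9 (Car9), a classical target of hypoxia-inducible factors, went from 14.7 to 860.9 normalized counts (5.77; 95% interval 5.25 to 6.57). The aldolase Aldoc went from 72.3 to 939.8 (3.68), Ndrg1 from 567.9 to 6146 (3.43) and the oxygen-sensing hydroxylase Egln3 from 3206 to 19363 (2.59). Hexokinase 1 (Hk1) went from 1445 to 10166 (2.81), while hexokinase 2 (Hk2), the insulin-responsive form, had 8098 and 7392. Pyruvate kinase (Pkm) went from 41268 to 133750 (1.70). The most counted member, the aldolase Aldoa, was at 82664 and 112215 (0.44). Hif1a, the oxygen-regulated transcription factor, had 4026 and 3531 normalized counts, and Pfkfb3 had the largest decrease (8665 and 4719, -0.88).

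**Figure D3:**
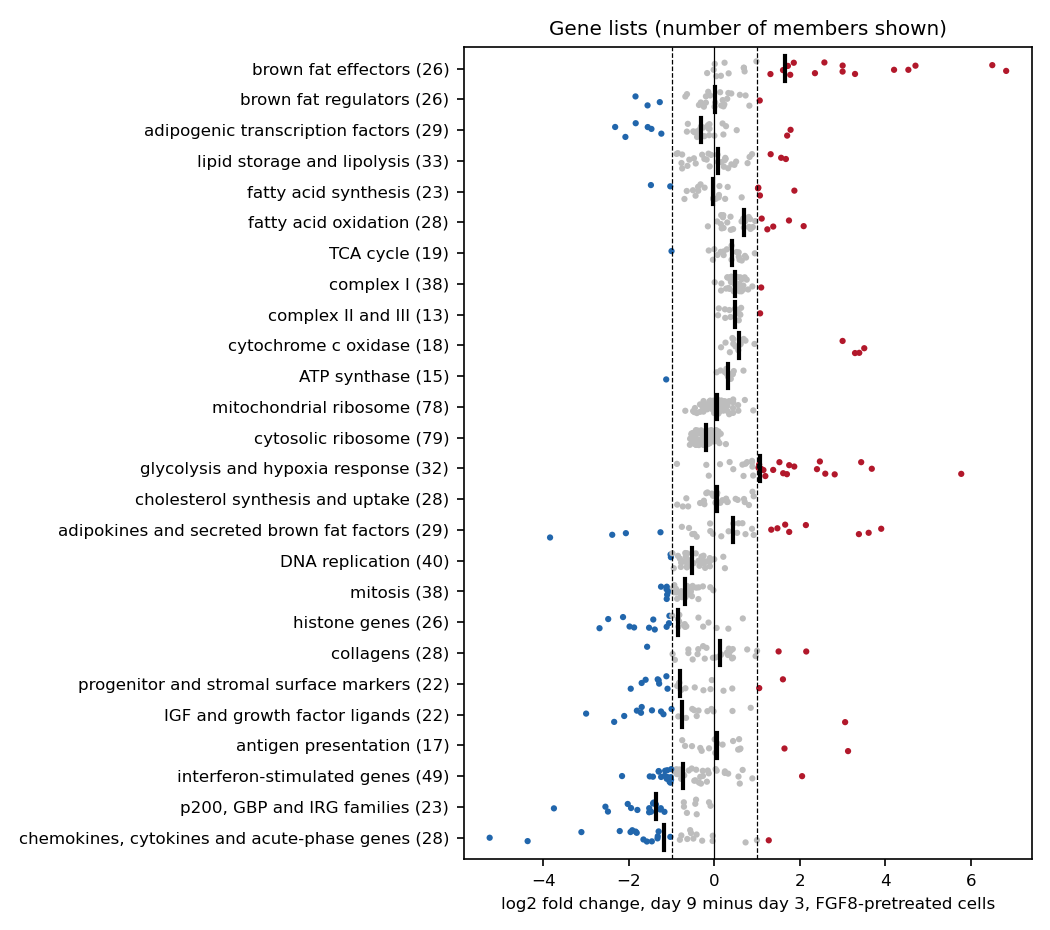
Log2 fold change between day 3 and day 9 in FGF8-pretreated cells (x axis, log2 units) for the members of 26 gene lists (y axis), each point a gene that passed the filter, with their number in parentheses. Black bars are medians, red and blue points are at least 2-fold higher and lower on day 9, dashed lines mark 2-fold, and the medians run from 1.66 for brown fat effectors to -1.37 for the p200, GBP and IRG families.

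Genes of adrenergic and cAMP signaling went both ways. Of 31 members 7 were at least 2-fold higher and 5 at least 2-fold lower, with a median of 0.04. The β1-adrenergic receptor Adrb1 went from 140.4 to 790.2 normalized counts (2.48), while the β3 receptor Adrb3, the main adipocyte form, went from 2146 to 1246 (-0.78). Adra1b, an α1 receptor, had the largest decrease (77.9 and 13.0, -2.49). Gnas, the stimulatory G protein and the most counted member, went from 37238 to 80767 (1.12), the adenylyl cyclase Adcy3 from 530.7 to 2198 (2.05) and the phosphodiesterase Pde4d from 1037 to 3966 (1.93). Pde3a, another phosphodiesterase, went from 48.4 to 260.1 (2.40). Pde4b (-1.53) and the G protein regulator Rgs2 (-1.73) were lower.

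Secreted factors of adipocytes went both ways. Of 29 members 8 were at least 2-fold higher and 4 at least 2-fold lower (median 0.44). The retinol carrier Rbp4 went from 1029 to 15402 normalized counts (3.90), the peptide Adm2 from 82.1 to 1013 (3.61) and the phospholipid transfer protein Pltp from 357.3 to 3730 (3.38). Vegfa, the vascular growth factor with the most counts, went from 13094 to 44032 (1.75). Adipsin (Cfd) went from 2163 to 149.6 (-3.85; 95% interval -4.08 to -3.64) and resistin (Retn) from 1896 to 450.4 (-2.07). Adiponectin (Adipoq) had 33237 and 22015 (-0.59). Leptin (Lep) stayed below the filter with 13 and 17 counts.

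Receptors and insulin signaling had 6 members at least 2-fold higher and 7 at least 2-fold lower of 26 (median -0.17). The incretin receptor Gipr went from 9.83 to 124.4 normalized counts (3.53) and the fatty acid receptor Ffar4 from 1504 to 6805 (2.18). The melanocortin receptor Mc5r went from 598.8 to 58.5 (-3.33). The insulin receptor Insr had 5754 and 5200 normalized counts, while its substrates Irs1 (4765 and 2083, -1.19) and Irs2 (4261 and 2075, -1.04) were lower. Of 22 genes of the glucocorticoid and cAMP response, 7 were at least 2-fold higher and 7 at least 2-fold lower, with a median of 0.16. Lower members included Fkbp5 (3743 and 913.8, -2.03), Sgk1 (-1.81), Zbtb16 (-1.69) and Tsc22d3 (-1.16). The metallothioneins Mt2 (1504 and 9355, 2.64) and Mt1 (1.52) were higher, as was the most counted member, the pyruvate dehydrogenase kinase Pdk4 (7259 and 26303, 1.86). The glucocorticoid dexamethasone was given only during induction, and its part in the values of this list was not tested.

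Proliferation genes were lower in a shallow and even way. All 38 genes of the mitosis list were below 0, with a median of -0.69, and 6 were at least 2-fold lower. Mki67, the marker of cycling cells and the most counted member, had 12971 normalized counts on day 3 and 8108 on day 9 (-0.68). The mitotic kinase Plk1 went from 2405 to 1011 (-1.25), and Kif23 was at 770.7 and 757.7 (-0.02). Of 40 DNA replication genes 38 were below 0 (median -0.53), and 2 were at least 2-fold lower, the ribonucleotide reductase subunit Rrm2 (11036 and 5419, -1.03) and the flap endonuclease Fen1 (-1.02). Cyclin D1 (Ccnd1), which couples growth factors to cell cycle entry, is in neither of these lists. It had a larger decrease than any of their members, from 350.3 to 65.8 (-2.39).

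Histone genes were mostly lower on day 9. Of 72 histone genes listed, 26 passed the filter, 11 were at least 2-fold lower and 0 higher, with a median of -0.85. With the filter raised to a mean of 100 the median was -0.37, and the summed level of the list was 39604 on day 3 and 37150.1 on day 9. Over the 26 genes the median in untreated cells was 0.14. H2ac12 had the largest decrease (42.1 and 5.69 normalized counts, -2.69), followed by H3c8 (141.1 and 24.4, -2.48) and H2bc8 (82.1 and 17.9, -2.14). H3f3b, a replication-independent H3.3 gene and the most counted member, had 8621 and 8933, and the linker histone of resting cells H1f0 6583 and 10433 (0.66). Transcripts of most replication-dependent histones lack a poly(A) tail, and the paper names a stranded mRNA kit for its libraries. Their counts therefore depend on how the RNA was selected and may not follow the level of these transcripts. Copies of a histone also share sequence.

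Growth factors and progenitor genes were mostly lower. Of 22 genes of the IGF and growth factor list 10 were lower by at least 2-fold and 1 higher by as much (median -0.75). The IGF binding proteins led, with Igfbp5 at 3191 and 397.5 normalized counts, Igfbp3 at 5403 and 1063 (-2.35) and Igfbp6 at 1007 and 232.5 (-2.11). Igf1, the most counted member, was at 5265 and 3676 (-0.52), and the receptor Erbb3 was the higher one (51.2 and 434.1, 3.06). Of 22 progenitor and stromal surface markers 8 were lower by at least 2-fold and 2 higher by as much (median -0.80). The TGF-β coreceptor endoglin (Eng) went from 268.1 to 68.3 (-1.96), the stromal marker Cd248 from 3200 to 982.9 (-1.70) and Dlk1, the inhibitor of adipogenesis, from 435.9 to 173.2 (-1.33). Ackr3 was the largest increase (131.3 and 400.8) and Ly6e had the most counts (12193 and 7057, -0.79). Of 26 WNT, TGF-β and BMP genes 7 were at least 2-fold lower and 2 higher (median -0.26), with Tgfb2 (188.1 and 35.0, -2.39) and the WNT inhibitor Sfrp2 (2181 and 519.5, -2.07) at the low end and Sfrp4 (1.64) at the high end.

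FGF8 had been given only before differentiation, and the transcripts that FGF and ERK signaling is known to induce went both ways. Of 27 members of the FGF and ERK feedback list 6 were at least 2-fold higher and 6 at least 2-fold lower, with a median of -0.06. The ETS factor Etv1 went from 133.4 to 23.6 normalized counts (-2.45), Myc from 2440 to 834.1 (-1.55) and the phosphatase Dusp4 from 2530 to 1235 (-1.03). The feedback inhibitor Spry4 had 1192 and 685.3 (-0.80) and Dusp6 212.0 and 236.6 (0.16). Fgf1, the ligand that adipocytes make themselves, had the largest increase (92.7 and 425.2, 2.19). The receptor Fgfr1 had 5260 and 3188 normalized counts (-0.72), and Fgf8 itself had 0 counts in both FGF8 libraries.

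Collagens were mostly within 2-fold, as were 86.4% of all genes. Of 28 that passed, 2 were at least 2-fold higher and 1 at least 2-fold lower (median 0.14). The fibrillar collagen Col3a1 had the most counts, with 100357 and 65789 (-0.61), and Col1a1 had 52308 and 70433 (0.43). The higher ones were Col27a1 (3699 and 16401, 2.15) and Col20a1, and the lower one was Col6a6 (40.7 and 13.0, -1.57). Matrix glycoproteins had 3 higher and 8 lower members of 39 (median -0.19), with Nid2 (4056 and 1094, -1.89), Spp1 (-1.86) and Efemp1 (-1.69) lower and Fmod higher (1.81). Enzymes of matrix crosslinking and turnover had 3 higher and 7 lower members of 31 (median -0.21). The collagenase-type protease Mmp2 went from 9539 to 3716 (-1.36) and the inhibitor Timp4 from 139.0 to 23.6 (-2.51), while Mmp11 (2.16) and the lysyl oxidase Loxl2 (1553 and 6674, 2.10) were higher.

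Acute-phase, complement and chemokine genes were lower on day 9. Of 28 members that passed, 15 were lower by at least 2-fold and 1 higher by as much, with a median of -1.17. Besides Serpina3n and Saa3, complement C3, the most counted member, went from 48136 to 13414 normalized counts (-1.84; 95% interval -1.87 to -1.82). The chemokine Cxcl9 went from 1172 to 300.0 (-1.96), Ccl7 from 193.7 to 50.4 (-1.92) and Cxcl12 from 10387 to 3765 (-1.46). The higher member was Ccl9 (68.8 and 167.5, 1.27). In untreated cells the median of the same genes was -0.37. C3 had 123612 and 92030 normalized counts there, Saa3 14286 and 8854, and Serpina3n 5443 and 3823.

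Interferon-stimulated genes were mostly lower on day 9. Of 49 members 17 were lower by at least 2-fold and 1 higher by as much, with a median of -0.74. The antiviral GTPase Mx1 went from 468.9 to 104.1 normalized counts (-2.16), Cmpk2 from 658.4 to 230.1 (-1.51) and the ubiquitin-like modifier Isg15 from 1888 to 930.0 (-1.02). The most counted member, the secreted glycoprotein Lgals3bp, went from 30525 to 14753 (-1.05). Not all members were lower. The regulator Irf7 had 2399 and 2188 normalized counts, the antiviral enzyme Rsad2 1259 and 1490 and the chemokine Cxcl10, of the preceding list, 480.1 and 467.4. The immunoproteasome subunit Psmb9 went from 332.7 to 1382 (2.05).

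The p200, GBP and IRG families, interferon-inducible DNA sensors and GTPases, were mostly lower on day 9. Of 28 members listed 23 passed the filter, 15 of them at least 2-fold lower and 8 within 2-fold, with a median of -1.37. All 23 values were below 0, and the counting interval lay below 0 for 20 of them. The guanylate-binding protein Gbp3 had the most counts, 10893 on day 3 and 4026 on day 9 (-1.44), and Gbp5 the smallest change (122.1 and 114.6, -0.09). Among the p200 genes, which lie close together on chromosome 1, Ifi205 (chr1:173839549-173859456) went from 692.8 to 50.4 (-3.75). Reads can be split among near-identical members of these families, so the values of single members are uncertain.

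The interferon-stimulated response element, written here as GAAA repeated after 2 bases, was looked for on both strands of the 250 bases before the start of the canonical transcript. It was found in 56.52% of the 23 promoters of the p200, GBP and IRG families and in 33.33% of 48 promoters of interferon-stimulated genes, against 3.065% of the 12496 genes with a promoter that passed the filter. Among genes at least 2-fold lower on day 9 the share was 5.441% of 680, and among those at least 2-fold higher 2.665% of 1013. Of both lists together, the 29 members with the element had a median log2 fold change of -1.16 and 19 were at least 2-fold lower, and the 42 members without it had a median of -0.49 and 13 were at least 2-fold lower. The lists were written for interferon biology, a match is only a string of letters, and no binding was measured. The medians of the lists also differed, -1.37 for the p200, GBP and IRG families and -0.74 for interferon-stimulated genes. Splitting by the element does not separate it from list membership, and paralogs with the same stretch count as separate members. Stretches around the match were read out for some p200 genes only. Ifi205, the largest decrease of the families (-3.75), was not among them because its 250 bases did not hold the element. The stretches shown are those of the 4 genes with the largest decreases among the p200 genes read out, not among all promoters with the element. Each is 50 bases on the minus strand of chromosome 1 (GRCm39), written 5′ to 3′ along the gene, with the element in capitals.
Ifi206 (chr1:173318895-173318944): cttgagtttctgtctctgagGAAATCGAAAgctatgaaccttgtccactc
Ifi207 (chr1:173569387-173569436): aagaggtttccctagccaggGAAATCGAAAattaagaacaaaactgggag
Ifi204 (chr1:173594617-173594666): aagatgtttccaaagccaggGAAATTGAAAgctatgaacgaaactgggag
Ifi203 (chr1:173770064-173770113): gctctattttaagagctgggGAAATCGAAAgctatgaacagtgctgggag
The stretch of Ifi211 has the same letters as that of Ifi204, and the stretch of Mndal the same as that of Ifi203. The genes behind these stretches went from 90.5 to 14.6 normalized counts (Ifi206, -2.55), from 2130 to 378.0 (Ifi207, -2.49), from 2961 to 725.1 (Ifi204, -2.03) and from 2472 to 639.0 (Ifi203, -1.95).

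Genes of antigen presentation were mostly within 2-fold, as were 86.4% of all genes. Of 17 members 2 were at least 2-fold higher and 0 at least 2-fold lower, with a median of 0.07. B2m, the light chain of MHC class I and the most counted member, had 22369 normalized counts on day 3 and 22683 on day 9 (0.02), H2-K1 13104 and 17739 (0.44) and the peptide transporter Tap1 2081 and 2376 (0.19). The higher members were the peptide editor Tapbpl (288.5 and 900.7, 1.64) and H2-Q6 (8.42 and 81.3, 3.13), whose reads can be shared with other class I genes. The largest decrease was that of the chaperone Pdia3 (-0.75).

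**Figure D4:**
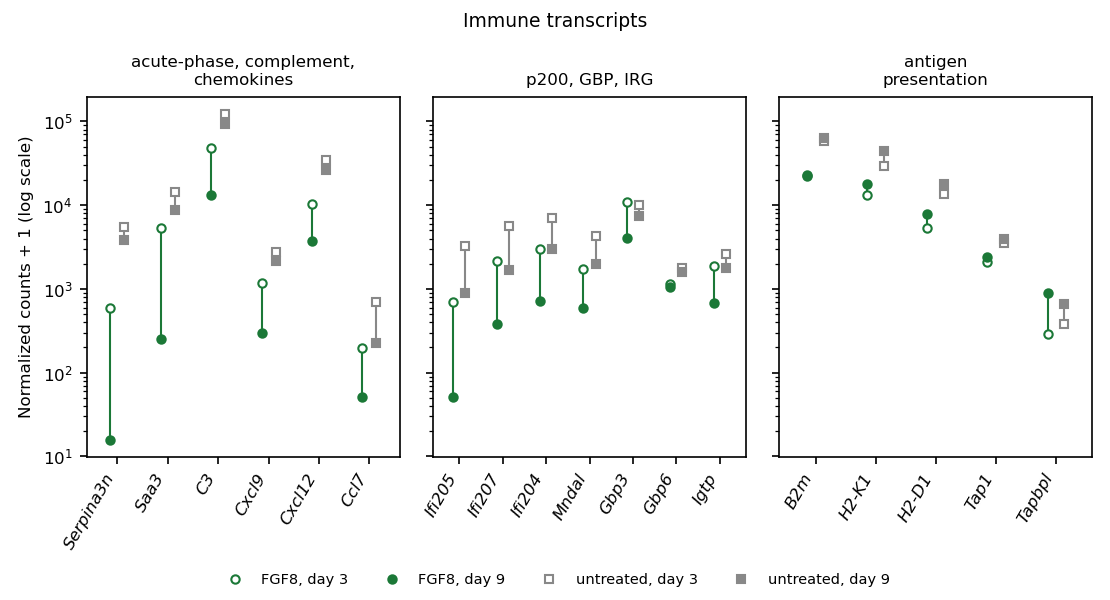
Normalized counts plus 1 (y axis, log scale) on day 3 (open) and day 9 (filled) in FGF8-pretreated (green circles) and untreated cells (grey squares), 1 library per point, for acute-phase, complement and chemokine genes, p200, GBP and IRG genes and antigen presentation genes. In FGF8-pretreated cells Serpina3n, Saa3 and Ifi205 have the longest downward lines, and B2m (22369 and 22683) lies on the same spot on both days.

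The change in FGF8-pretreated cells was set beside that in untreated cells, which shares no library with it. In the untreated pair 1154 of 13153 genes (8.77%) were at least 2-fold higher on day 9 and 581 (4.42%) at least 2-fold lower. Across the 12713 genes that passed in both pairs, Pearson's r between the log2 fold changes was 0.796, a description over genes that are not independent replicates. Of the 998 higher genes of the FGF8 pair, 645 were also at least 2-fold higher in untreated cells, 348 were within 2-fold and 5 were at least 2-fold lower. Of the 687 lower genes, 299 were also at least 2-fold lower in untreated cells, 384 were within 2-fold and 4 were at least 2-fold higher. Differences between the pairs could not be tested with 1 library a condition.

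Brown fat, oxidative, fatty acid synthesis and glycolytic lists had larger medians in untreated cells. For the lists named here the summed level on day 3 was lower in untreated cells. On day 9 it was lower there too, except for fatty acid synthesis. Glycolysis and hypoxia genes summed to 434656 and 915645 normalized counts after FGF8 and to 187682 and 725550 in untreated cells. The summed level of the brown fat effectors was 65738 and 264173 normalized counts after FGF8 and 29542 and 234777 in untreated cells. The median of brown fat effectors was 1.66 after FGF8 and 2.31 in untreated cells, that of cytochrome c oxidase 0.58 and 1.09, of fatty acid oxidation 0.68 and 1.25, of fatty acid synthesis -0.03 and 0.85, and of glycolysis and hypoxia 1.07 and 2.00. Immune lists had lower medians after FGF8, antigen presentation only slightly so (0.07 and 0.18 in untreated cells). On day 3 the summed levels of these lists were already lower after FGF8. For the p200, GBP and IRG families they were 40499 normalized counts after FGF8 and 70649 in untreated cells. For acute-phase and chemokine genes they were 90916 and 274052. The p200, GBP and IRG families had medians of -1.37 and -0.61, interferon-stimulated genes -0.74 and -0.28, and acute-phase and chemokine genes -1.17 and -0.37. The difference between pairs was most negative for Serpina3n (-4.75), Saa3 (-3.68), Ucp1 (-3.62), Depp1 (-3.52) and Smtnl2 (-3.43) where the mean reached 100 normalized counts or more in both pairs. Smtnl2, a smoothelin-like muscle gene, had 282.9 and 518.7 normalized counts after FGF8 and 28.0 and 572.1 in untreated cells. It was most positive for Pde3a (2.52), the lysosomal GTPase Rragd (2.42), Gask1a (2.36) and the sphingosine kinase Sphk1 (2.33). Sphk1 had 39.3 and 383.7 normalized counts after FGF8 and 157.8 and 299.5 in untreated cells. Taken as a ratio, the larger gap between the groups was on day 3 for Ucp1, Depp1, Smtnl2, Pde3a and Sphk1. For Serpina3n and Saa3 the larger ratio was on day 9.

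**Figure D5:**
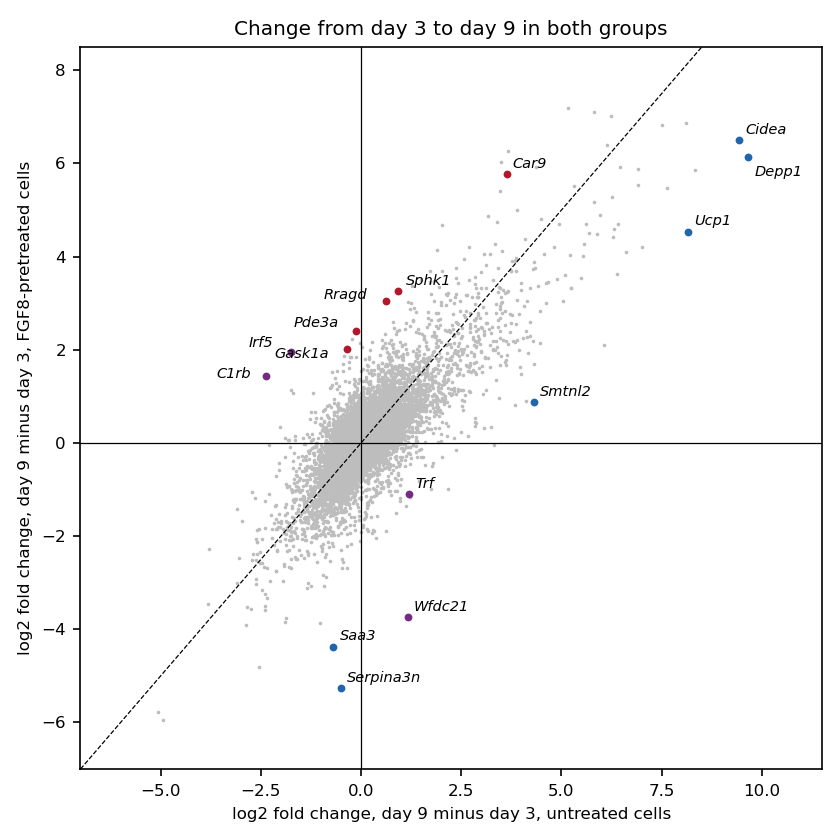
Log2 fold change between day 3 and day 9 in FGF8-pretreated cells (y axis, log2 units) against that in untreated cells (x axis, log2 units) for the 12713 genes that passed in both pairs, with equal change on the dashed line. Named points lie far from that line, blue where the FGF8 value was more negative (Serpina3n by -4.75), red where it was more positive (Pde3a by 2.52) and purple for 4 of the 9 genes past 2-fold in opposite directions.

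The values above share limits. The strand setting of the counting is not given in the sources used here, and of 1441 named genes and list members in the annotation, 203 have over 20% of their exon bases covered by another gene on the opposite strand and 30 on the same strand. Among the genes named above these are Actn3, Adrb3, Car9, Ccnd1, Cox5a, Cox8b, Dusp6, Fabp3, Fabp4, Fen1, Gpd1, H2-K1, H2ac12, Hadha, Idh2, Isg15, Loxl2, Mmp2, Mt2, Ndufa3, Ndufa4l2, Pdia3, Pltp, Ppara, Rrm2 and Sfrp2 on the opposite strand and Aldoa and Pkm on the same strand.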

How the data were processed

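Bulk RNA-seq counts of 6 libraries were used, 1 for each of FGF8-pretreated and untreated cells before differentiation and at days 3 and 9. The authors trimmed reads with Trim Galore, aligned them to mm39 with HISAT2 used featureCounts for gene counts, and deposited these counts unnormalized; versions and the strand setting are not given in the sources used here. Libraries held 16403254 to 38551551 counts. Normalized counts are counts over size factors (median of ratios in DESeq2 1.42.0, R 4.3.3, from the 6 libraries). Fold changes are differences of log2(normalized count + 1) for genes with a mean of at least 20 in the pair, with exact Clopper-Pearson 95% intervals (scipy 1.17.1). With 1 library a side no test was made, and the intervals cover counting error only. The calculation was tested on simulated data. Alternatives were TMM (edgeR 4.0.16), total counts, size factors within the pair, pseudocounts of 0.5 and 5, other filters and other fold rules.

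Exon lengths, overlaps and promoters came from GENCODE M39 on GRCm39, the build of the files, in which 23698 of 26264 gene names (90.23%) were found once. Named genes were the 10 largest changes per direction with a mean of at least 100, members of gene lists (at least the most counted and the largest increase and decrease), the 5 largest differences from untreated cells per direction, and the 5 highest genes per kilobase on each day. The members and lists were chosen with earlier results of these data known, and other named list members were chosen after their values were seen. Some genes that these rules name are not reported here.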

Additional observations from a re-analysis of the deposited data

Results flagged for a closer look

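In 9 of the 12713 genes that passed in both pairs, the change from day 3 to day 9 was at least 2-fold in opposite directions in FGF8-pretreated and untreated cells. With 1 library a condition these differences were not tested. Higher after FGF8 and lower in untreated cells were Irf5, C1rb, Eva1c, Dtna and Sts. The interferon regulatory factor Irf5 had 47.0 normalized counts on day 3 and 186.2 on day 9 after FGF8 and 129.8 and 37.6 in untreated cells, a difference of 3.72 on the log2 scale. The complement protease C1rb had 10.5 and 30.1 after FGF8 and 179.5 and 34.1 in untreated cells (3.79), and its reads can be shared with C1ra. Eva1c had 42.1 and 93.5 after FGF8 and 128.5 and 37.6 in untreated cells (2.88), Dtna 12.6 and 27.6 against 114.5 and 34.8 (2.76), and the steroid sulfatase Sts 179.0 and 376.4 against 645.3 and 282.5 (2.26). After FGF8 the 95% counting intervals of the log2 fold change included values under 2-fold for some of these genes. They were 0.61 to 2.49 for C1rb, 0.69 to 1.63 for Eva1c, 0.26 to 2.04 for Dtna and 0.85 to 1.30 for Sts.

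Lower after FGF8 and higher in untreated cells were Wfdc21, Ces1d, Aqp11 and Trf. Wfdc21 had 55.5 and 3.25 normalized counts after FGF8 and 43.3 and 98.0 in untreated cells, a difference of -4.89. The lipid hydrolase Ces1d had 852.2 and 334.9 after FGF8 and 511.6 and 1106 in untreated cells (-2.46). The aquaporin Aqp11 had 134.8 and 59.3 against 61.1 and 142.7 (-2.38), and transferrin (Trf) 581.9 and 271.5 against 330.9 and 765.9 (-2.31). The counting intervals after FGF8 also included values under 2-fold for Aqp11 (-1.59 to -0.79) and Trf (-1.29 to -0.91).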

How the results depend on the processing

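The count of genes at least 2-fold higher ran from 943 with total counts to 1093 with size factors within the pair, against 1050, and was 707 at a mean of at least 100. The count of lower genes ran from 654 with a pseudocount of 5 to 795 with total counts, against 695. Without a filter 2045 genes were higher and 1626 lower, under a 1.5-fold rule 2122 and 1774, and under a 4-fold rule 337 and 110. At a mean of at least 100, 439 genes were lower. The filter and the fold rule change these counts by construction. Of 310 named genes and list members past 2-fold, 18 came under 2-fold in at least 1 alternative and 0 changed sign. Of 51 list medians, 8 changed sign in at least 1 alternative, all of them within 0.26 of 0. That of basement membrane and integrin genes went from 0.26 to -0.06 at a mean of at least 100, and the other 7 (brown fat regulators, adrenergic and cAMP signaling, mitochondrial ribosome, mitochondrial biogenesis, cholesterol, antigen presentation and peroxisome) did so with total counts. No scaling moved a log2 fold change by more than 0.088. No paired analysis was possible because each condition is 1 library and the labels carry no replicate numbers. Leaving out a replicate was not possible for the same reason. Fold changes of genes with few counts are limited by depth, as their intervals show.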

Other observations

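Other gene groups follow. Over all 12869 genes, 8.16% were at least 2-fold higher on day 9 in FGF8-pretreated cells and 5.40% at least 2-fold lower. Of 12 genes of creatine and calcium cycling that passed the filter, 5 were at least 2-fold higher and 1 at least 2-fold lower on day 9 (median 0.60). Alpl, a phosphatase, went from 570.7 to 2510 normalized counts (2.13), Gamt, which makes creatine, from 400.1 to 179.7 (-1.15), and the calcium pump Atp2a2, the most counted member, had 11600 and 10531. Of 32 genes of the unfolded protein and ATF4 response, 5 were at least 2-fold higher and 0 lower (median 0.09), with the stress factors Atf3 (175.5 and 873.9, 2.31) and Trib3 (1345 and 4625, 1.78) among them and the chaperones Hsp90b1 (34831 and 28227, -0.30) and Pdia4 (-0.71) below 0. Of 19 clock genes 4 were at least 2-fold higher and 0 lower (median 0.50), with the repressor Bhlhe40 at 2589 and 6255 (1.27) and Per1 at 2531 and 1409 (-0.84).

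Peroxisome genes were mostly within 2-fold, as were 86.4% of all genes. Of 32 members 1 was at least 2-fold higher and 1 at least 2-fold lower (median 0.01). Phyh, which starts the breakdown of phytanic acid, went from 880.9 to 7760 (3.14) and the membrane protein Pxmp2 from 788.3 to 331.7 (-1.25). Of 17 retinoid genes 4 were at least 2-fold higher and 3 at least 2-fold lower (median 0.08), with Retsat the most counted (7257 and 11462), Rbp4 highest (3.90) and the retinol dehydrogenase Rdh12 lowest (-1.80). Of 15 prostaglandin genes 1 was at least 2-fold higher, Akr1b8 (1.61), and 2 at least 2-fold lower, with the transporter Slco2a1 at -1.67 and Ptgr2 most counted (6320 and 9610). Hox and positional genes were mostly within 2-fold, as were 86.4% of all genes. Among the 27 that passed, 1 was at least 2-fold lower, Hoxc13 (46.3 and 16.3, -1.46). Hoxb2 was highest (0.91) and Hoxb8 most counted (1556 and 834.9, -0.90).

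Of 23 basement membrane and integrin genes 6 were at least 2-fold higher and 4 at least 2-fold lower (median 0.26, and -0.06 with the filter raised to a mean of 100). The collagen receptor subunit Itga11 went from 12.6 to 156.9 (3.53), the laminin chain Lama2 from 325.0 to 90.2 (-1.84), and Lamb1 had the most counts (13542 and 9910). Actin and contractile genes were mostly within 2-fold, as were 86.4% of all genes. Of 29 members 2 were at least 2-fold higher and 2 at least 2-fold lower (median -0.22). The muscle intermediate filament desmin (Des) went from 183.9 to 1178 (2.67), the smooth muscle myosin Myh11 from 226.0 to 35.0 (-2.66), and Actb had 19779 and 16839.

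Apart from the interferon-stimulated response element, 10 further motifs were counted on both strands of the same 250 bases. The AP-1 site TGAGTCA was in 5.726% of promoters of genes at least 2-fold higher, 3.676% of those at least 2-fold lower and 3.201% of all that passed. The hypoxia element TACGTGC was in 0.7897% (8 promoters), 0.1471% (1) and 0.8323% (104). The estrogen-related receptor element TCAAGGTCA was in 0.7897% (8 promoters), 0% (0) and 0.3201% (40). The NRF1 core GCATGCGC was rarer in both changed groups (0.9872%, 1.176% and 3.369%). Not all motifs counted are reported here. No test was made of these shares.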
